A study of Homo sapiens with 6 samples.

Results

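The TRAF adaptor family was examined in 8 genes, TRAF1 to TRAF7 and TRAF3IP2, taken by gene name from a table of 58735 genes. All 8 were listed once and all 8 passed the filter on low values, which 12136 genes of the table passed. RNA-seq had been performed on U251 cells, an established human glioblastoma line grown in high-glucose medium with serum. The control group (NC, n = 3) received sterile deionized water and the treated group (TNF-α, n = 3) received recombinant human tumor necrosis factor-α at 10 ng/mL, both for 24 h. The values are FPKM, fragments scaled by gene length and by a library size set by the authors, so that levels of different genes can be set side by side.

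TRAF proteins are cytoplasmic adaptors that link receptors of the TNF, interleukin-1 and Toll-like families to kinases of the NF-κB and JNK pathways. Most carry an N-terminal RING domain, as ubiquitin ligases do, and a C-terminal TRAF domain that binds receptors and other TRAF proteins. At TNF receptor 1, TRADD brings in TRAF2, and TRAF2 brings in the ubiquitin ligases cIAP1 and cIAP2. TRAF1 has no RING domain and is a known transcriptional target of NF-κB, and TRAF7 has WD40 repeats in place of the receptor-binding TRAF domain.

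The 6 libraries held 31992167 to 37897044 reads in genes, recovered from the deposited FPKM. TNF-α replicates 2 and 3 stood apart from the other 4 libraries. The share of reads in genes above 8 kb was 16.6% and 17.9% there and 28.8% to 29.1% elsewhere. A smooth function of GC content and length was fitted to the log2 ratios to the NC mean. It explained 34.9% and 33.5% of their sum of squares about 0 in TNF-α replicates 2 and 3, and 1.36% in TNF-α replicate 1. A shift of a whole library counts as explained in these shares. No NC library shared this composition, so it and the treatment cannot be told apart in those libraries, and the log2 differences of the members are given by library, without TNF-α replicate 1 and with it as the lone treated library. Of 7 glial and glioma markers, 6 were expressed (1 FPKM or more in 3 or more libraries), and S100B was near 0 (at most 0.168). GFAP, the defining astrocyte marker, had 7.10 to 9.47 FPKM in controls and 1.58 to 2.60 after TNF-α, whereas VIM had 325 to 362 and 434 to 974. NES had 41.1 to 44.4 FPKM in controls and 40.8, 69.2 and 58.0 in TNF-α replicates 1 to 3, SOX2 58.9 to 66.3 and 57.8, 22.6 and 30.4, FABP7 3.18 to 3.56 and 1.33, 3.10 and 2.29, and CD44 133 to 136 and 136 to 141. Of the macrophage or microglia (6), lymphocyte (5), endothelial (5) and epithelial (4) markers, 1 was expressed by that measure, the endothelial gene KDR, and PTPRC and all 5 lymphocyte markers were at 0 in each library. Whether these marker levels had a part in the results was not tested. In bulk samples, fewer cells of a type and less RNA per cell cannot be told apart.

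The bases before the start sites of 3 members are shown here so that the most responsive member (TRAF1), the adaptor compared with all others (TRAF2) and the member with a κB match (TRAF3) can be compared. Each run is the 250 bases 5′ of a RefSeq start on GRCh38.p14, written 5′ to 3′ on the strand of the gene. TRAF1 is at chr9:120929172-120929421 on the minus strand and is the window of the start farthest upstream among 3. TRAF2 is at chr9:136886266-136886515 on the plus strand, and TRAF3 is at chr14:102777199-102777448 on the plus strand. Capitals mark a match to the NF-κB binding consensus (the κB consensus), searched on both strands.

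TRAF1: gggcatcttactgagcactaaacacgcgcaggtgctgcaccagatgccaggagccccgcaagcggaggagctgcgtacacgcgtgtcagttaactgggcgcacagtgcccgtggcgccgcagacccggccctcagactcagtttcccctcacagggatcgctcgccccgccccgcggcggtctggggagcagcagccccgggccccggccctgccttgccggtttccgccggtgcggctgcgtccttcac
TRAF2: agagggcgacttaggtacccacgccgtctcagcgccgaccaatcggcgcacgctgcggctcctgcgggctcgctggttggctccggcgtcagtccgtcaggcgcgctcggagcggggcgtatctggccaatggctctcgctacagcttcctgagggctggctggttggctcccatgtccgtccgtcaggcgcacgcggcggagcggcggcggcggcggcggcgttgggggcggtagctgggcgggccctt
TRAF3: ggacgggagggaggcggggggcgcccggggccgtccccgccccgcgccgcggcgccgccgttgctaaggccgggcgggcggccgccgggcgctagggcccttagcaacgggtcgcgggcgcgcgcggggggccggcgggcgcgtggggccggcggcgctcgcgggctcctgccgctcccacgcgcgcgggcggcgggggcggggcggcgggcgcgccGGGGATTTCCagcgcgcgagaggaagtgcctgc

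All 8 members had a RefSeq window, 13 windows in all. The κB consensus was matched in 1 of the 13, that of TRAF3, starting 33 bases before the start site, against 9.96% of all 35116 windows of this length. The AP-1 motif TGANTCA, searched on both strands and not overlapping that match, was found in 1 of the 13, before a start of TRAF3IP2, against 6.57% of all windows. None of the 3 TRAF1 windows held either motif, which says only that these letters are not in the bases searched.

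To see how much transcript of each adaptor the control cells carried, the members were ordered by their NC level. The length behind the FPKM is that of all annotated exons of a gene merged, so this order also depends on which exons are annotated. TRAF4, an adaptor linked to cell polarity and migration, was the most abundant with 24.9 ± 1.99 FPKM (mean ± SD, n = 3 per group here and below). TRAF7, which binds the kinase MEKK3, followed with 23.0 ± 2.09 FPKM, and the ranges of these 2 genes overlapped. TRAF3, which holds down noncanonical NF-κB signalling and serves antiviral signalling, had 11.1 ± 0.346 FPKM, and TRAF2 had 11.002 ± 1.17 FPKM, again with overlapping ranges. TRAF6, the ubiquitin ligase of interleukin-1 and Toll-like receptor signalling, had 5.70 ± 0.511 FPKM. TRAF3IP2, also called Act1, the adaptor of interleukin-17 receptors, had 4.02 ± 0.379 FPKM. TRAF5, a close relative of TRAF2, had 1.76 ± 0.145 FPKM and TRAF1 was lowest with 1.16 ± 0.0981 FPKM. From TRAF2 downwards, no neighbours in this order overlapped.

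In the TNF-α group the order was TRAF4, TRAF2, TRAF7, TRAF1, TRAF3, TRAF3IP2, TRAF6 and TRAF5. TRAF1 had moved from the last place to the fourth. This order of means was that of TNF-α replicates 2 and 3. In TNF-α replicate 1 it was TRAF7, TRAF4, TRAF1, TRAF3, TRAF2, TRAF6, TRAF3IP2 and TRAF5, so that TRAF1 was the third and TRAF2 the fifth. Among neighbours, the ranges of TRAF4 and TRAF2, of TRAF2 and TRAF7, and of TRAF3IP2 and TRAF6 overlapped, and the others did not. Set against all tested genes of the same library, TRAF1 lay above 4.44% to 7.19% of them in controls and above 76.6% to 79.3% after TNF-α. TRAF2 lay above 61.3% to 66.8% in the NC libraries, above 71.9% in TNF-α replicate 1 and above 86.4% and 82.2% in replicates 2 and 3.

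**Figure D1:**
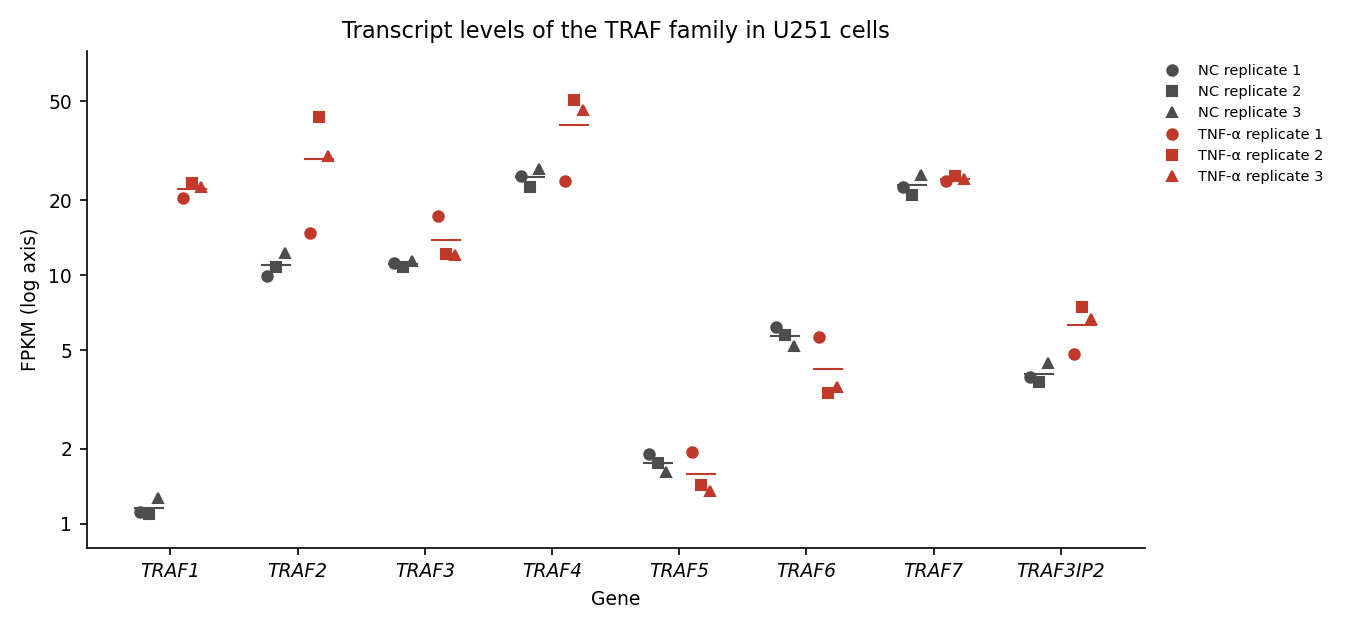
FPKM (log axis) of the 8 members, with 1 point per library (NC grey, TNF-α red, shape by replicate) and a line at each group mean (n = 3). TRAF1 is near 1 FPKM in all NC libraries and above 20 FPKM in all TNF-α libraries, while the red points of TRAF2 and TRAF4 spread from 14.8 to 43.1 and from 23.9 to 50.6 FPKM.

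Next, the treatment was compared with the control in limma, on log2(FPKM + 1) and with p-values adjusted over all tested genes by the Benjamini-Hochberg method. One scale unit is a doubling for genes far above 1 FPKM and understates the change of lower ones. Of the 8 members, 1 was past an adjusted p of 0.05 and higher, TRAF1, and 0 were past it and lower, where 1.01% of all tested genes were past it (0.717% in the higher and 0.297% in the lower direction). Without adjustment, 3 members had a p under 0.05, as had 24.2% of all genes. By limma-voom on the recovered reads TRAF1 alone was called, against 0.626% of all genes. Without TNF-α replicate 1 the count was 5 of 8 (TRAF1, TRAF2, TRAF4, TRAF6 and TRAF3IP2), in a fit that called 79.4% of all genes. With TNF-α replicate 1 as the lone treated library the count was 2 (TRAF1 and TRAF3), against 6.03% of all genes. The spread in that last fit comes from the NC libraries alone, and the lone library is assumed to vary as they do. Of the 7 members not past the threshold, 5 had a log2 fold change above 0 and 2 below 0. The median over the 8 was 0.40, against 0.04 over all tested genes. In 4 members the groups did not overlap, each time with TNF-α higher (TRAF1, TRAF2, TRAF3 and TRAF3IP2), against 14.8% of all genes in that direction and 30.1% in either.

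TRAF1 (ENSG00000056558, chromosome 9, 120902393 to 120929173 on GRCh38, 10 merged exons) had 1.12, 1.09 and 1.27 FPKM in NC replicates 1 to 3 and 20.4, 23.5 and 22.6 FPKM in TNF-α replicates 1 to 3. These values rest on counts of 261, 231 and 264 in controls and 4236, 3931 and 3539 reads after TNF-α. All 3 treated libraries were far above every control, and they were close to each other, TNF-α replicate 1 included. The mean was 19.1-fold higher, a log2 difference of 3.42 (SE 0.12, 95% interval 3.13 to 3.71) with an adjusted p of 0.000665 from limma. The log2 fold change was 3.48 without TNF-α replicate 1 and 3.31 with it as the lone treated library.

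TRAF2 (ENSG00000127191, chromosome 9, 136881912 to 136926607, 19 merged exons) had 9.92, 10.8 and 12.2 FPKM in controls and 14.8, 43.1 and 30.04 after TNF-α. Its reads numbered 1313, 1302 and 1441 against 1746, 4093 and 2672. Every treated library was above every control, but TNF-α replicate 1 was 1.35-fold above the NC mean where replicates 2 and 3 were 3.92-fold and 2.73-fold above it. The log2 fold change was 1.22 (SE 0.37, 95% interval 0.33 to 2.11), with an adjusted p of 0.195 from limma, and was not past the threshold. Leaving out TNF-α replicate 1 gave 1.63 (adjusted p 5.3e-05). With TNF-α replicate 1 as the lone treated library it was 0.40 with an adjusted p of 0.111.

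The composition of TNF-α replicates 2 and 3 was then set beside each member. For every library, the log2 ratios of all tested genes were fitted as a smooth function of GC content and gene length, and the fitted value at a member is called its trend. TRAF2, with 61.3% GC, had a trend of 0.92 and 0.77 in TNF-α replicates 2 and 3, beside measured changes of 1.88 and 1.38. In TNF-α replicate 1 its trend was 0.02 beside a measured 0.40. With the trend subtracted, TRAF2 had a log2 fold change of 0.65 (SE 0.16) and an adjusted p of 0.108. TRAF1, with 54.6% GC, had a trend of 0.20 and 0.14 beside measured changes of 3.50 and 3.45, and after subtraction its log2 difference was 3.30 with an adjusted p of 8.1e-05 in limma. In that fit TRAF1 was the 1 member past the threshold, against 2.04% of all genes.

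**Figure D2:**
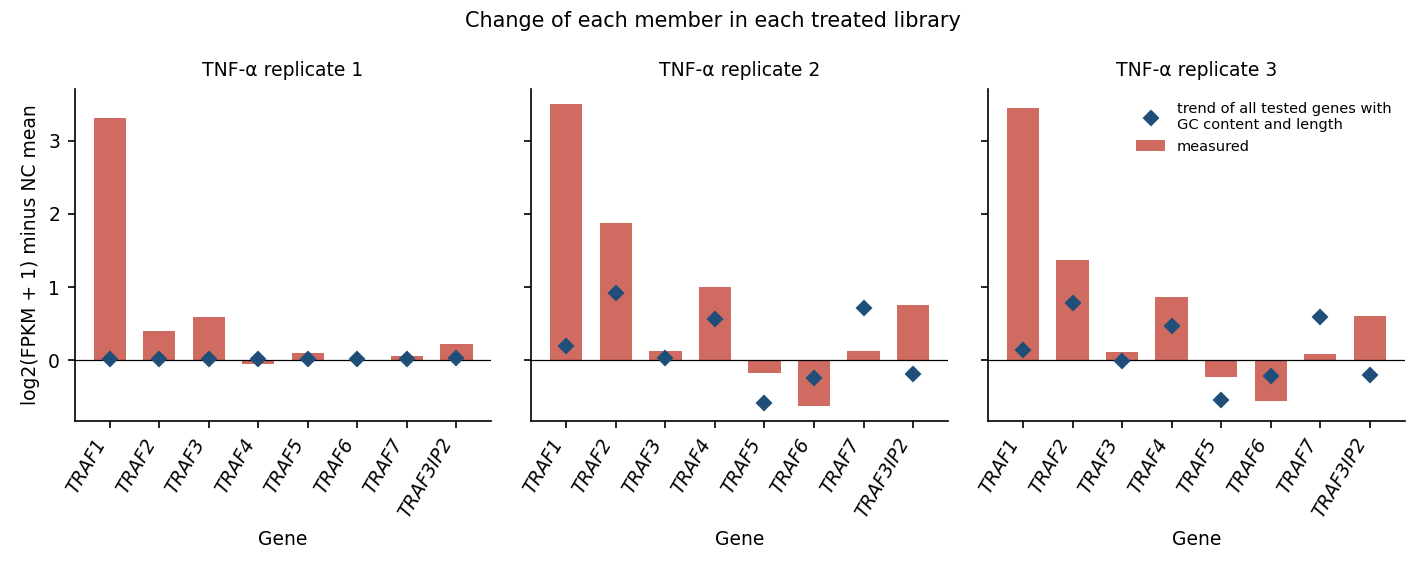
Bars give log2(FPKM + 1) of each member minus its NC mean in each TNF-α library, and diamonds give the trend of all tested genes at the GC content and length of that member. In replicate 1 the diamonds lie near 0 for all members, and in replicates 2 and 3 those of TRAF2, TRAF4 and TRAF7 lie between 0.46 and 0.92 and those of TRAF5 below -0.5.

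TRAF3 (ENSG00000131323, chromosome 14, 102777476 to 102911500) showed the opposite split between the treated libraries. It had 11.2, 10.8 and 11.4 FPKM in controls and 17.2, 12.2 and 12.1 after TNF-α. TNF-α replicate 1 stood above the rest, at 1.55-fold the NC mean, and replicates 2 and 3 were 1.09-fold and 1.08-fold above it. The log2 difference was 0.27 (SE 0.17, 95% interval -0.14 to 0.68, adjusted p 0.251 in limma). With TNF-α replicate 1 as the lone treated library it was 0.59 with an adjusted p of 0.0106, and without that library it was 0.11 with an adjusted p of 0.145. Its trend was between -0.01 and 0.03 in the 3 libraries. Its direction turned on the TPM scale (-0.20), where all tested genes had a median of -0.42.

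TRAF3IP2 (ENSG00000056972, chromosome 6, 111556454 to 111606278) had 3.90, 3.72 and 4.45 FPKM in controls and 4.82, 7.47 and 6.64 after TNF-α. The groups did not overlap, and TNF-α replicate 1 was the lowest treated library. The log2 difference was 0.53 (SE 0.17, 95% interval 0.11 to 0.95), with an adjusted p of 0.195 in limma. The trend at its GC content and length was below 0 in TNF-α replicates 2 and 3, at -0.19 and -0.20, beside measured changes of 0.76 and 0.61. Leaving out TNF-α replicate 1 gave 0.68 (adjusted p 0.000292), and as the lone treated library it gave 0.22 (adjusted p 0.321). On the TPM scale TRAF3IP2 was at 0.12, where all tested genes had a median of -0.42. Relative to the median of all genes it was at 0.54 under TPM and at 0.48 on the FPKM scale. An antisense gene overlapped 1.88% of its exonic length.

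TRAF4 (ENSG00000076604, chromosome 17, 28743984 to 28750958) had 25.2, 22.7 and 26.7 FPKM in controls and 23.9, 50.6 and 46.0 after TNF-α. TNF-α replicate 1 lay inside the NC range, and replicates 2 and 3 were 2.04-fold and 1.85-fold above the NC mean. The log2 fold change was 0.60 (SE 0.29, 95% interval -0.11 to 1.31, adjusted p 0.197 in limma), and was 0.93 (adjusted p 5.7e-05) without TNF-α replicate 1 and -0.05 with it as the lone treated library. It was 0.12 on the TPM scale, 0.35 by limma-voom and 0.26 with the trend subtracted. Relative to the median of all genes, TRAF4 was at 0.53 under TPM and at 0.56 on the FPKM scale. The trend in replicates 2 and 3 was 0.56 and 0.46 beside measured changes of 1.00 and 0.86. Antisense genes overlapped 16.9% of its exonic length, of which AC010761.4 had at most 1.11 FPKM and AC010761.5 was listed at 0 throughout.

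TRAF6 (ENSG00000175104, chromosome 11, 36487027 to 36510272) had 6.20, 5.72 and 5.18 FPKM in controls and 5.65, 3.34 and 3.55 after TNF-α. TNF-α replicate 1 lay inside the NC range and the other 2 lay below it. The log2 difference was -0.39 (SE 0.19, 95% interval -0.87 to 0.08, adjusted p 0.198 in limma). With 41.9% GC, it had a trend of -0.25 and -0.22 in TNF-α replicates 2 and 3 beside measured changes of -0.62 and -0.55. Leaving out TNF-α replicate 1 gave -0.59 (adjusted p 0.000489), and as the lone treated library it gave -0.0069 (adjusted p 0.981). The difference was -0.92 on the TPM scale, -0.75 by limma-voom and -0.24 with the trend subtracted. Relative to the median of all genes, TRAF6 was at -0.50 under TPM and at -0.44 on the FPKM scale.

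TRAF5 (ENSG00000082512, chromosome 1, 211326615 to 211374946) had 1.91, 1.76 and 1.62 FPKM in controls and 1.94, 1.43 and 1.36 after TNF-α, with overlapping groups. The log2 difference was -0.11 (SE 0.14, 95% interval -0.43 to 0.22, adjusted p 0.552 in limma), and became 0.27 with the trend subtracted, -0.56 under TPM and -0.44 by limma-voom. It was -0.20 without TNF-α replicate 1 and 0.09 with that library alone. Relative to the median of all genes, TRAF5 was at -0.14 under TPM and at -0.15 on the FPKM scale. TRAF7 (ENSG00000131653, chromosome 16, 2155698 to 2178129) had 22.6, 21.1 and 25.2 FPKM in controls and 23.9, 25.1 and 24.4 after TNF-α. All 3 treated values of TRAF7 lay inside the NC range. The log2 difference was 0.09 (SE 0.13, 95% interval -0.22 to 0.41, adjusted p 0.588 in limma), and became -0.35 with the trend subtracted and -0.40 under TPM. It was 0.11 without TNF-α replicate 1 and 0.06 with that library alone. Relative to the median of all genes, TRAF7 was at 0.01 under TPM and at 0.05 on the FPKM scale. CASKIN1, on the other strand, overlapped 21.2% of the exonic length of TRAF7 and had at most 0.0159 FPKM.

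Since a factor that multiplies every FPKM of a library cancels in a ratio, TRAF2 was then compared with each other member within each library. In the NC libraries TRAF2 had 8.86, 9.92 and 9.61 times the FPKM of TRAF1, and in the TNF-α libraries 0.726, 1.83 and 1.33 times. TRAF2 was thus above TRAF1 in 5 of 6 libraries and below it in TNF-α replicate 1. On the log2(FPKM + 1) scale the TRAF2 to TRAF1 difference fell by 2.20 between the groups, with no overlap. A library factor cancels on that scale only up to the pseudocount, which matters most for genes near 1 FPKM such as TRAF1 in controls. The change was -2.71 under TPM and -2.86 with a pseudocount of 0.1.

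Against TRAF3, the ratio was 0.883, 1.01 and 1.07 in controls and 0.861, 3.54 and 2.49 after TNF-α. The 2 genes were thus near parity in 4 libraries, and TRAF2 led in TNF-α replicates 2 and 3. The difference between groups was 0.95 on the log2 scale, and it was -0.18 with TNF-α replicate 1 as the lone treated library. Against TRAF4, the most abundant member, the ratio was 0.394, 0.477 and 0.459 in controls and 0.621, 0.851 and 0.653 after TNF-α. TRAF2 stayed below TRAF4 in all 6 libraries, but its ratio was higher in each treated library than in any control, by 0.62 on the log2 scale.

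Against TRAF7 the ratio was 0.439, 0.514 and 0.485 in controls and 0.621, 1.72 and 1.23 after TNF-α. The groups did not overlap, and TRAF2 exceeded TRAF7 in TNF-α replicates 2 and 3. The differences between groups were 1.13 for TRAF7, 1.33 for TRAF5, 1.62 for TRAF6 and 0.69 for TRAF3IP2, and for these 3 others the treated libraries were likewise above every control. With 3 against 3 libraries an exact two-sided permutation test cannot give a p below 0.1. That value was reached for 6 of the 7 comparisons, all but TRAF3 (exact p 0.4), and adjusted over the 7 it was 0.117. None of these 7 differences was therefore past the threshold, which this test cannot reach with 3 libraries a group. With the GC and length trend subtracted, the difference was 0.0027 for TRAF3IP2 (exact permutation p 1), so that it was no longer seen, and 0.38 for TRAF5, 0.39 for TRAF3, 0.39 for TRAF4, 0.89 for TRAF6, 1.00 for TRAF7 and -2.65 for TRAF1. With TNF-α replicate 1 as the lone treated library the differences, TRAF1 (-2.91) and TRAF3 apart, were 0.19 to 0.46.

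**Figure D3:**
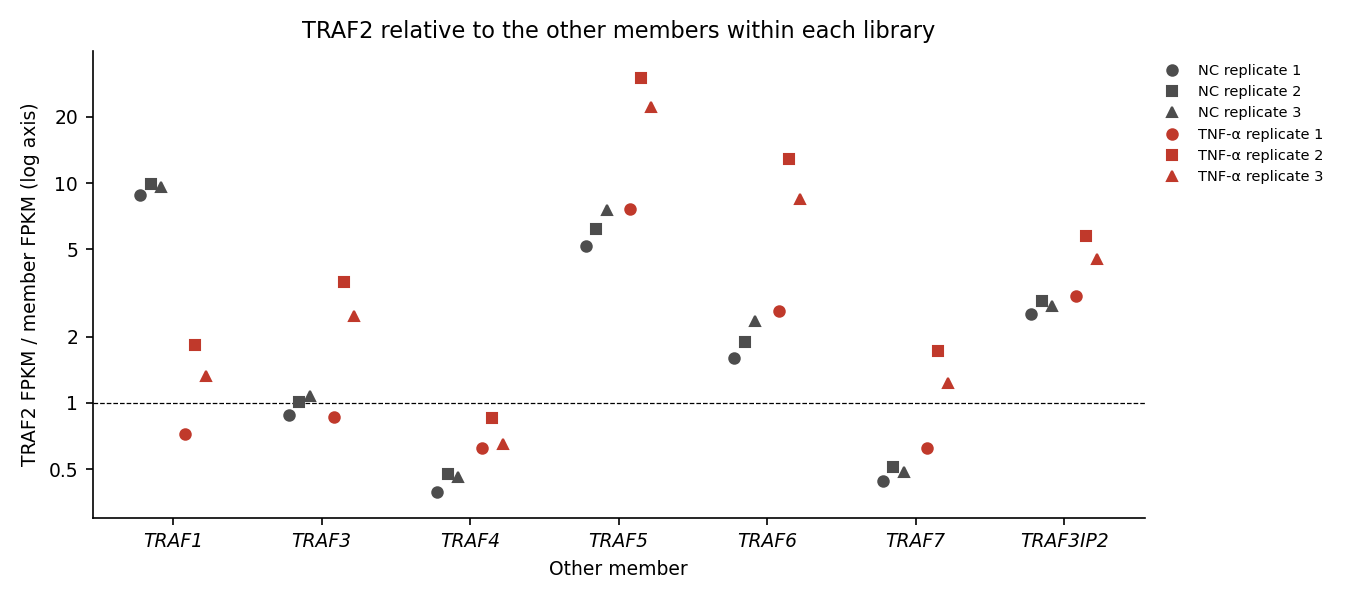
FPKM of TRAF2 divided by FPKM of each other member (log axis) in each library, NC in grey and TNF-α in red, with a dashed line at equal levels. The ratio to TRAF1 is 8.86 to 9.92 in NC and 0.726 to 1.83 in TNF-α libraries, and for TRAF3 the point of TNF-α replicate 1 lies below all NC points.

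The make-up of the TRAF1 to TRAF7 pool was taken from the same FPKM as another view. The summed FPKM of the 7 genes was 78.1, 74.0 and 83.7 in controls and 108, 159 and 140.1 after TNF-α, so that the pool was larger in each treated library. TRAF2 made up 12.7%, 14.6% and 14.6% of it in controls and 13.7%, 27.1% and 21.4% after TNF-α. Its share in TNF-α replicate 1 lay within the NC range, and the mean difference was 6.76 percentage points (exact permutation p 0.3). That difference was 3.10 with the trend subtracted, 10.3 without TNF-α replicate 1 and -0.24 with it as the lone treated library. TRAF1 went from 1.48% ± 0.0450 to 16.6% ± 2.14, a difference of 15.1 percentage points. The shares of TRAF7, TRAF6 and TRAF5 were lower in every treated library than in any control. That of TRAF7 was 29.2% ± 0.863 in the NC group and 18.5% ± 3.31 in the TNF-α group. The FPKM of TRAF7 itself was 23.0 ± 2.09 and 24.5 ± 0.619, so on the FPKM scale its lower share goes with the larger pool. Under other scalings TRAF7 itself was lower. Its log2 difference was -0.40 under TPM, where all tested genes had a median of -0.42, and -0.35 with the trend subtracted. The exact permutation p for the share was 0.1 for TRAF1, TRAF5, TRAF6 and TRAF7, the smallest that the design allows.

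**Figure D4:**
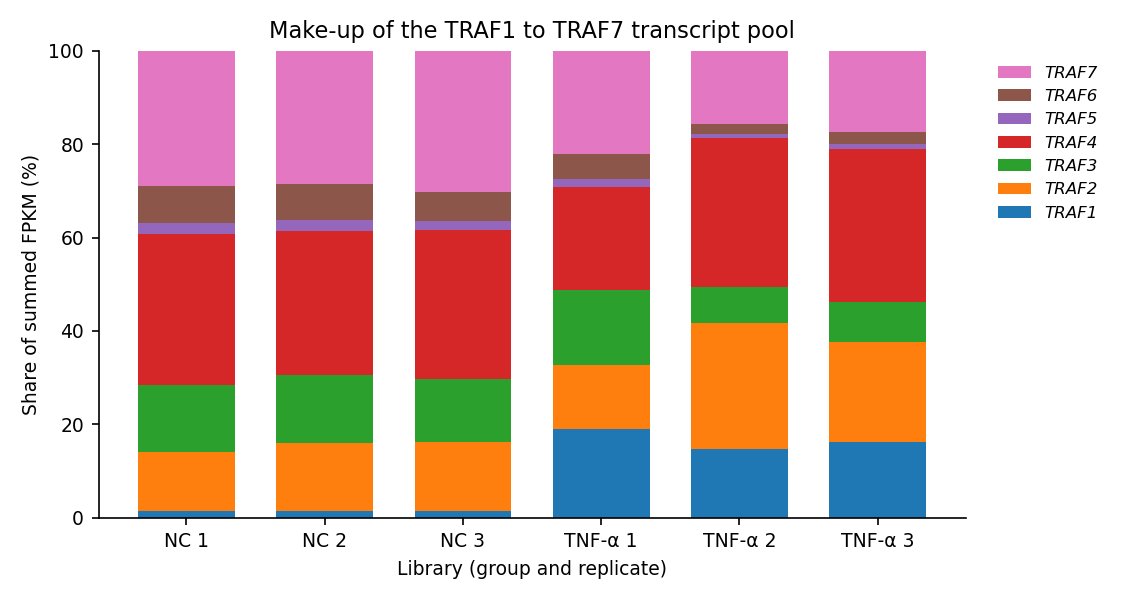
Share (%) of each of TRAF1 to TRAF7 in their summed FPKM, with 1 bar per library. The TRAF1 segment grows from 1.43% to 1.52% in NC bars to 14.8% to 18.9% in TNF-α bars, while the TRAF2 segment of TNF-α replicate 1 (13.7%) is like those of the NC bars.

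Other genes of the pathway were taken from 8 lists that together held 91 genes outside the family. Of these, 70 were tested, 10 were past the threshold and higher, and 0 were past it and lower, that is 14.3% against 1.01% of all genes. Without adjustment, 32 of the 70 had a p under 0.05, as had 24.2% of all genes. The count was 8 by limma-voom, 0 when NC replicate 2 or 3 was left out, and 2 when NC replicate 1 or TNF-α replicate 3 was. It was 5 with TNF-α replicate 2 left out and 63 with TNF-α replicate 1 left out, in the fit that called 79.4% of all genes. The median log2 fold change over the 70 was 0.24, against 0.04 over all genes. The lists were chosen with earlier results of these libraries known. No GC and length trend is given here for single pathway genes.

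Among 21 receptors that signal through TRAF proteins, 7 were tested and 1 passed (median log2 fold change 0.28). It was TNFRSF9, which encodes the costimulatory receptor 4-1BB and binds TRAF1 and TRAF2. Its FPKM was 0.446, 0.303 and 0.329 in controls and 7.72, 6.07 and 5.20 after TNF-α (log2 difference 2.42, SE 0.16, adjusted p 0.00316). TNFRSF9 was under 1 FPKM in every control and entered the test through the treated libraries alone, where it is high, so its call is no independent support. Leaving it out, 9 of 69 pathway genes passed. TNFRSF12A, the TWEAK receptor, had 182 to 196 FPKM in controls and 194, 606 and 522 after TNF-α, and LTBR, the lymphotoxin β receptor, had 10.1 to 10.8 against 10.2, 16.9 and 16.4. Neither passed, and in both TNF-α replicate 1 lay inside the NC range.

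Among 16 partners in the TNF receptor complex, 15 were tested and 1 passed (median 0.20). BIRC3, which encodes cIAP2, the ubiquitin ligase that TRAF2 holds at the receptor, had 2.80, 3.06 and 2.87 FPKM in controls and 28.7, 16.8 and 17.3 after TNF-α. The log2 fold change of BIRC3 was 2.45 (SE 0.22, adjusted p 0.00996). BIRC2, which encodes cIAP1, had 29.01 to 31.3 FPKM against 45.4 to 63.9 (log2 difference 0.77, adjusted p 0.138), and both genes were highest in TNF-α replicate 1. IKBKG, the regulatory subunit of the IκB kinase, had 6.22 to 7.77 against 9.35 to 14.4 FPKM (adjusted p 0.172). Its near-identical copy IKBKGP1 had 1.51 to 20.9 FPKM, so that the value of IKBKG is uncertain.

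Among 12 TRAF-binding proteins and kinases, 10 were tested and 2 passed (median -0.12). IKBKE, a kinase related to TBK1, went from 4.29 ± 0.787 to 14.9 ± 2.47 FPKM, a change of 1.59 on the log2 scale (SE 0.18, adjusted p 0.0197). TIFA, which brings TRAF6 into oligomers, had 3.46, 2.84 and 2.49 FPKM in controls and 6.85, 6.83 and 6.80 after TNF-α. Its treated values were closer together than its controls, and the log2 difference was 1.00 (SE 0.13, adjusted p 0.0327).

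Among 11 ubiquitin-editing enzymes and brakes, 10 were tested and 2 passed (median 0.07). TNIP1, which encodes an A20-binding inhibitor of NF-κB, had 20.5, 20.5 and 23.7 FPKM in controls and 100.5, 191 and 160.1 after TNF-α (log2 fold change 2.70, adjusted p 0.0112). TNFAIP3, which encodes A20 itself, had 4.14, 3.44 and 4.22 against 57.6, 18.9 and 26.8 FPKM (log2 fold change 2.70, adjusted p 0.0421). TNIP1 was lowest and TNFAIP3 highest in TNF-α replicate 1 among the treated libraries, and both were above every control in each of them.

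All 6 genes of the noncanonical NF-κB list, the branch restrained by TRAF3 with TRAF2 and the cIAP proteins, were tested, and 3 passed (median 1.61). RELB had 6.31, 5.90 and 8.34 FPKM in controls and 46.8, 130 and 105 after TNF-α (log2 fold change 3.48, adjusted p 0.0185). NFKB2, the precursor of p52, had 17.0, 15.8 and 18.7 against 71.9, 150 and 129 FPKM (log2 fold change 2.63, adjusted p 0.0173). The remaining call was BIRC3, given above. Of the 6 genes, 4 had a log2 fold change above 0 and 2 below 0, so the median does not stand for each gene. The 2 were MAP3K14 and CHUK. MAP3K14 had 13.2, 13.0 and 13.7 FPKM in controls and 8.21, 11.1 and 11.1 after TNF-α (log2 difference -0.38, adjusted p 0.195 in limma). CHUK had 9.14, 10.2 and 8.77 against 9.48, 4.15 and 5.39 FPKM (log2 difference -0.56, adjusted p 0.197 in limma). In both transcription factor genes TNF-α replicate 1 was the lowest treated library and still above the NC mean, by 6.83-fold for RELB and 4.19-fold for NFKB2.

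Of 12 TRAF6 adaptors and kinases, 11 were tested and 1 passed (median 0.04). IRAK2, a kinase of interleukin-1 and Toll-like receptor signalling that binds TRAF6, had 5.63, 5.56 and 5.35 FPKM in controls and 35.3, 26.8 and 28.1 after TNF-α (log2 fold change 2.24, adjusted p 0.00316). SQSTM1, the p62 scaffold, had 50.7, 48.7 and 52.0 FPKM in controls and 69.9, 94.6 and 97.4 after TNF-α (adjusted p 0.148 in limma). TICAM1, the adaptor TRIF, had 19.0, 19.9 and 20.8 against 28.2, 56.7 and 53.6 FPKM (adjusted p 0.165 in limma). Exons of other genes overlapped 22.0% of the exonic length of SQSTM1.

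Of 9 genes around interleukin-17 receptors and TRAF3IP2, 8 were tested and 1 passed (median 0.60). ZC3H12A, which encodes the RNA-degrading brake Regnase-1, had 3.52, 3.44 and 4.21 FPKM in controls and 10.1, 11.01 and 11.8 after TNF-α (log2 fold change 1.34, adjusted p 0.0116). CEBPB, a transcription factor that acts downstream of interleukin-17, had 26.0, 25.8 and 26.5 FPKM in controls and 43.5, 77.6 and 72.7 after TNF-α (adjusted p 0.102 in limma). IL17RD, a receptor of the same family, had 3.79, 4.11 and 3.83 against 2.25, 0.973 and 1.45 FPKM (log2 difference -0.97, adjusted p 0.109). Of 9 genes of the JNK arm, 8 were tested (median -0.26) and 0 passed in limma, or in limma-voom on the recovered reads, and 3 had an unadjusted p under 0.05. All 8 passed when TNF-α replicate 1 was left out, in the fit that called 79.4% of all genes, and with it as the lone treated library 1 did. JUN had 84.5 to 100.1 FPKM in controls and 123 to 140.2 after TNF-α (log2 fold change 0.54, adjusted p 0.195). MAP3K5, the kinase ASK1 that TRAF2 binds, had 10.7 to 11.1 FPKM in controls and 9.44, 3.70 and 4.08 after TNF-α (log2 fold change -0.92, adjusted p 0.195).

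**Figure D5:**
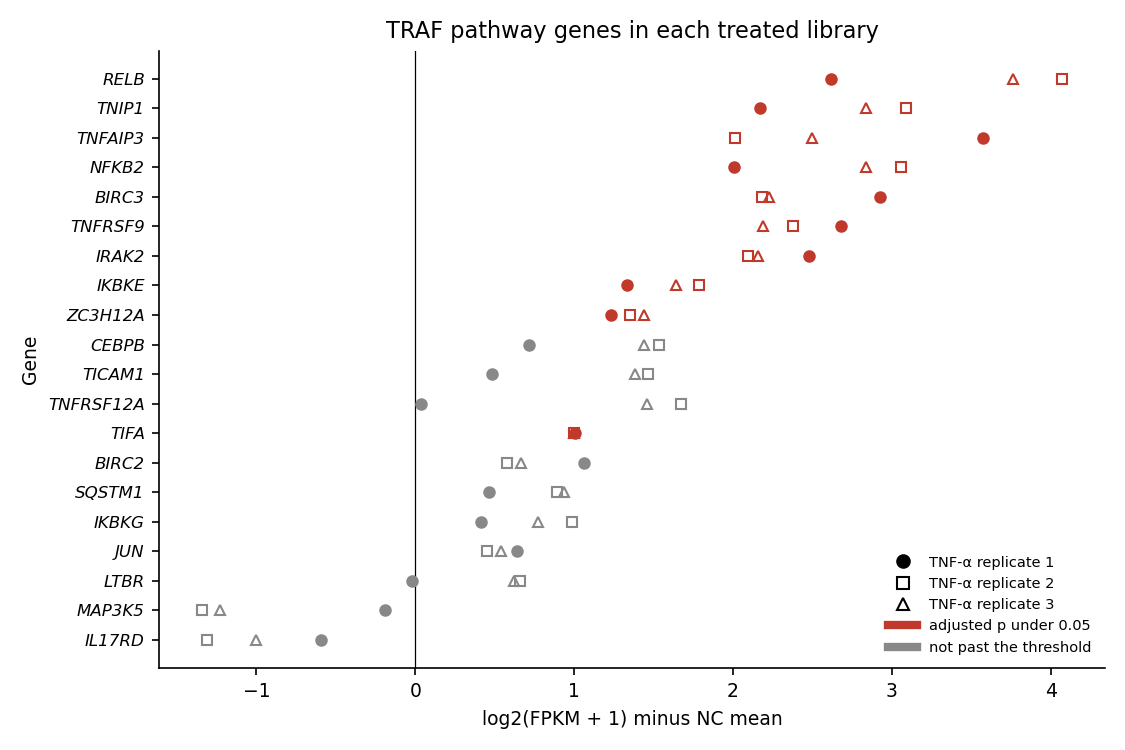
log2(FPKM + 1) minus the NC mean of each named pathway gene in the 3 TNF-α libraries (filled circle, replicate 1; open square, replicate 2; open triangle, replicate 3), red for genes past the threshold. MAP3K14 and CHUK are not shown. All 10 red genes are above 0 in each of the 3 libraries, and the grey genes TNFRSF12A, LTBR and MAP3K5 lie between -0.19 and 0.03 in replicate 1.

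Finally, the genes with profiles most like those of TRAF1 and TRAF2 were listed as a description, by Euclidean distance over the 6 libraries of log2(FPKM + 1) minus the NC mean, among 12128 tested genes outside the family. Nearest to TRAF1 were CXCL2 (distance 0.62), a neutrophil-attracting chemokine, SLC12A7 (0.70), a potassium-chloride cotransporter, and CSF2 (0.72), the cytokine GM-CSF. Their log2 fold changes were 3.09, 3.03 and 3.66, and SLC12A7 and CSF2 entered the test through the treated libraries alone. Nearest to TRAF2 were the noncoding gene AL049840.4 (0.15), the ferritin pseudogene FTH1P2 (0.16), whose reads may be shared with other ferritin copies, and ZNHIT2 (0.17). These 3 had log2 fold changes of 1.25, 1.24 and 1.22, with an adjusted p of 0.195 each in limma, and like TRAF2 they were lower in TNF-α replicate 1 (0.30 to 0.35) than in replicates 2 and 3.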

How the data were processed

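Poly(A)-selected libraries of 6 U251 cultures (3 NC, 3 TNF-α, described as independent biological replicates) were grouped by their sample titles. The authors deposited FPKM per gene and library, neither pooled nor log transformed. HISAT2 2.0.5, StringTie 1.3.3b and featureCounts 1.5.0 are named in the submitters' processing notes, and the genome build and use of strand are not given in the sources used here. All 58735 identifiers, names, positions and lengths equalled GENCODE 29 on GRCh38. Multiplied by gene length, 100% of values came out as whole reads (tolerance 0.01), from which reads were recovered. The authors' library size was 0.693 and 0.759 of the reads in genes in TNF-α replicates 2 and 3 and 0.925 to 0.959 elsewhere. Of a 2 kb gene, 3 reads equal 0.0415 to 0.0618 FPKM. Such limits cover counting error only. A further 6 columns of per-sample values match no sample described here and were not used.

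Genes reaching 1 FPKM in 3 or more libraries were tested with limma 3.58.1 in R 4.3.3 (lmFit, eBayes with trend, two-sided, pseudocount 1, threshold adjusted p 0.05), without covariates. TRAF2 was compared with the other members by exact permutation over libraries. The trend with GC content (longest GENCODE transcript) and length used natural splines with 5 degrees of freedom each and their products. The fit was tested on simulated data of 12136 genes for TNF-α against NC, where it recovered 96% of 2-fold and 100% of 4-fold changes with 13 false calls. The simulated dispersion was 0.01 in both groups, so those shares do not carry over to members whose treated libraries spread widely, such as TRAF2. Named genes were the members, the 3 nearest to TRAF1 and TRAF2, and per list up to 4 that passed, ordered by absolute change, joined, where under 2 passed, by the 2 others with the smallest unadjusted p. MAP3K14 and CHUK were named in addition, as the lower genes of their list. Members, lists and tests were chosen with earlier results of these data known. A total of 21 alternatives were run. Python 3.11.15, pandas 2.3.3 and matplotlib 3.10.9 prepared tables and plots. Protein sequences were not used here.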

Additional observations from a re-analysis of the deposited data

How the results depend on the processing

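TRAF1 kept its direction and its call under all 21 alternatives (log2 fold change 3.30 to 4.14, adjusted p up to 0.0196). TRAF2 stayed higher under all 21 (0.40 to 1.63), and was past the threshold only without TNF-α replicate 1 (5.3e-05). Over the libraries left out in turn it ranged from 0.89 to 1.63. The number of members past the threshold was 1 except without TNF-α replicate 1 (range over the libraries left out 1 to 5) and with that replicate as the lone treated library (2, TRAF1 and TRAF3, where 6.03% of all genes passed on the spread of the NC libraries alone). Without TNF-α replicate 1 the 5 were TRAF1, TRAF2, TRAF4, TRAF6 and TRAF3IP2.

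Of the pathway genes 10 were past the threshold, against 5 with any gene above 0 FPKM tested, 4 under TPM, 20 with TNF-α replicate 1 as the lone treated library, and 0 to 63 over the libraries left out (2, 0 and 0 without NC replicates 1, 2 and 3, and 63, 5 and 2 without TNF-α replicates 1, 2 and 3). With TNF-α replicate 1 as the lone treated library, TRAF2 relative to TRAF3 was -0.18 and the difference in the TRAF2 share was -0.24 percentage points, both reversed, as were TRAF4 (-0.053) and TRAF5 (0.092). TRAF3 reversed under TPM (-0.20). TRAF5 reversed after quantile normalization (0.027) and with GC content and length corrected (0.27). TRAF7 reversed under TPM (-0.40), after quantile normalization (-0.18), with GC content and length corrected (-0.35) and limma-voom on recovered reads (-0.17). The median of all genes was -0.42 under TPM and -0.22 under limma-voom, and relative to it TRAF3 and TRAF7 were at 0.21 and 0.01 under TPM, and TRAF6 at -0.50 under TPM and -0.54 under limma-voom. The cause of these changes was not tested.

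Over all genes, 123 were past the threshold, against 9630 without TNF-α replicate 1, 732 with it as the lone treated library, 247 with the GC and length correction, 185 with quantile normalization, 79 with an FPKM of at least 5, 76 with limma-voom, 58 under TPM, 58 with any gene above 0 FPKM tested and 24 with the replicate block. Without NC replicates 1, 2 and 3 there were 17, 10 and 13, and without TNF-α replicates 2 and 3 there were 42 and 20. Correlations of deviations were -0.01, -0.18 and 0.12 between same-numbered libraries of the 2 groups, and -0.16 to 0.18 between differently numbered ones. Since TNF-α replicate 1 stands apart from replicates 2 and 3, these values cannot decide whether the libraries were paired. The numbers were not taken as pairs. With the replicate block, 2 pathway genes passed and TRAF1 kept its call. The number of libraries, 3 per group, limits the exact tests to p = 0.1.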
